A study of Mus musculus with 18 samples.

Results

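Stress erythroid progenitors of the mouse spleen had 25347 distal peaks of open chromatin with no counterpart in the peak list of steady-state bone marrow (BM) progenitors. They came from the peak list that the assay for transposase-accessible chromatin (ATAC-seq) gave for stress spleen burst-forming erythroid progenitors (BFU-E). Entries with the same chromosome, start and end were merged to 61661 intervals, of which 47530 lay more than 1000 bp from the nearest annotated transcription start site (TSS). The peaks were selected on being listed in stress BFU-E while no base of them overlapped any of the 35142 merged intervals of the BM list. They made up 41.1% of all stress intervals and 53.3% (95% Wilson interval 52.9 to 53.8%, counting error only) of the distal ones. The other 22183 distal stress peaks overlapped a BM peak and are called shared here. Of the distal BM peaks, 1461 overlapped no stress peak. Presence in one list and absence from the other chose the peaks, so that difference is a description, without a test.

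Stress BFU-E were sorted from the spleens of B6SJL mice on day 8 after lethal irradiation and a transplant of unfractionated bone marrow, and BM BFU-E from steady-state bone marrow of that strain. Each gave 3 ATAC libraries and 3 RNA libraries. From the stress spleens, 3 RNA libraries each were also made of multipotent progenitors (MPP) and of colony-forming erythroid progenitors (CFU-E). Cells bearing Ter-119, Gr-1, CD8, CD4 or B220 were removed, and the rest sorted by flow cytometry on antigens that included c-Kit, Sca1, CD9, CD24a, CD71, CD150 and CD133. Organ, irradiation with transplantation, and the fluorophore on biotinylated antibodies changed together between stress and steady state, so their parts cannot be told apart. The labels do not say which libraries came from separate animals, so p-values measure the spread between these libraries, which may be technical. The ATAC libraries of a population are represented by 1 list, so a peak has no replicate values, and the depth of the ATAC libraries is unknown.

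RNA libraries held 10555143 to 12926718 counts in stress BFU-E, against 6758871 to 9463498 in BM BFU-E. Of the tabled genes, 0.420 to 0.738% had no count in a stress BFU-E library, against 1.53 to 15.3% in a BM BFU-E library, with replicate 3 the highest. In the spleen table the libraries held 5937778 to 13197159 counts in MPP, 10598773 to 12978458 in BFU-E and 9884686 to 12663624 in CFU-E. All 10 markers of BFU-E and erythroid progenitors were tabled, and their summed level, in counts scaled to library size (CPM), was 3382 to 3413 CPM in stress BFU-E and 3085 to 4057 CPM in BM BFU-E. The 4 tabled macrophage markers of 10 summed to 12.3 to 20.8 CPM in stress BFU-E and 91.1 to 168 CPM in BM BFU-E, with C1qa, C1qb, Vcam1, Mertk and Marco listed at 0 in every stress library. Marco was also at 0 in every BM library. The 8 tabled monocyte and granulocyte markers of 9 summed to 694 to 820 CPM in stress BFU-E and 702 to 1834 CPM in BM BFU-E. The 6 megakaryocyte markers summed to 847 to 1055 CPM in stress BFU-E and 1095 to 1654 CPM in BM BFU-E, with Ppbp at 0 in every BM library. The 2 tabled T and NK cell markers, Cd4 and Nkg7, summed to 53.2 to 69.3 CPM in stress BFU-E and 40.8 to 84.3 CPM in BM BFU-E, with Cd3e, Cd4, Cd8a and Klrb1c listed at 0 in every stress library. In every BM library Cd3e, Cd3d, Cd8a and Klrb1c were at 0. The tabled B cell marker, Cd79b, was at 2.58 to 8.09 CPM in stress BFU-E and 5.26 to 16.6 CPM in BM BFU-E. The 3 dendritic cell markers summed to 0 to 19.2 CPM in stress BFU-E and 34.2 to 105 CPM in BM BFU-E. The 5 tabled mast cell and basophil markers of 6 summed to 11.2 to 33.6 and 7.39 to 145 CPM. The 1 tabled erythroblast marker of 7 was at 341 to 380 and 262 to 338 CPM.

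Open chromatin far from a start site often marks enhancers, short stretches of DNA bound by transcription factors, and sometimes insulators bound by CTCF. In red cell progenitors GATA1 and GATA2 bind the letters GATA, often next to an E-box bound by TAL1, while KLF1, RUNX1 and ETS factors such as PU.1 and FLI1 bind other short motifs. Stress erythropoiesis is the fast output of red cells after blood loss, irradiation or a transplant, for which mice rely largely on the spleen. Transposable elements can supply binding motifs. In mouse, many B2 short interspersed elements (SINEs) carry a CTCF motif, and long terminal repeats (LTRs) of retroviral elements carry motifs of blood cell factors.

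The centres of 8 of the peaks, each with 100 bases to either side, show what their sequences look like (plus strand, mm10, which is GRCm38). Capitals mark matches to the GATA, composite, ETS, RUNX or KLF motif described further on and, in the B2_Mm2 element, also to the CTCF core. The first 2 lie near Kit, the receptor of stem cell factor and a sort antigen, and near Gata2. The Kit peak is intronic (chr5:75633223-75633423, 58332 bp downstream of the start site, score 853), and the Gata2 peak is intergenic (chr6:88197390-88197590, 1174 bp upstream, score 849), 844 bp from a start site of the more inclusive GENCODE annotation. The next is a top-scored peak with an E-box and GATA composite, in an intron and in an LTR of type MTE2a, with Cryzl1 as nearest gene (chr16:91717164-91717364, score 1000), 205 bp from a GENCODE start site. The peak from the longest run lies in an IMPB_01 satellite with Atg7 as nearest gene (chr6:114577505-114577705, intergenic, score 828). The last 4 were chosen after values were seen. They are an intronic Itgb3 peak with a composite (chr11:104622190-104622390, score 635), an intergenic peak 6685 bp upstream of F13a1 (chr13:37056829-37057029, score 964), an intronic B2_Mm2 SINE nearest to Nexn (chr3:152238964-152239164, score 1000) and an intergenic RLTR45 LTR nearest to Ndufa4 (chr6:11443889-11444089, score 1000).
Kit: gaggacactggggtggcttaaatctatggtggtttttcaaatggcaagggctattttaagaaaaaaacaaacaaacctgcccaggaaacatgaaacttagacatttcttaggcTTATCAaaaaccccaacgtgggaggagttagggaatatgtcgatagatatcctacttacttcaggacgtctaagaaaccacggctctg
Gata2: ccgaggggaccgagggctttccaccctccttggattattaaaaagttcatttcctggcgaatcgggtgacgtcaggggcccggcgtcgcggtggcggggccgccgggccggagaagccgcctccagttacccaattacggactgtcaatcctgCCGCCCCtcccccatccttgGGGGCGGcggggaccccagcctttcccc
MTE2a near Cryzl1: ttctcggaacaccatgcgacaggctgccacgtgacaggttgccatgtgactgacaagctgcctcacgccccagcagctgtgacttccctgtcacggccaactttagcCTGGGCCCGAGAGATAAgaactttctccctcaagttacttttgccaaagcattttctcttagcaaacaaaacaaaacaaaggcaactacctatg
IMPB_01 near Atg7: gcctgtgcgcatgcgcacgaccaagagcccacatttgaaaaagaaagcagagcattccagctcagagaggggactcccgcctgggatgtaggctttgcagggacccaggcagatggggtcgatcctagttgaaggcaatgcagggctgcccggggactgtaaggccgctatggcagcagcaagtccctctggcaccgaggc
Itgb3: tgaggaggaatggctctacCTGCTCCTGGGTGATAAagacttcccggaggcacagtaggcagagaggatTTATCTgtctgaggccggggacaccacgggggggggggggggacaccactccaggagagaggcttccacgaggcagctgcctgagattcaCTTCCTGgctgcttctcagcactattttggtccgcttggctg
F13a1: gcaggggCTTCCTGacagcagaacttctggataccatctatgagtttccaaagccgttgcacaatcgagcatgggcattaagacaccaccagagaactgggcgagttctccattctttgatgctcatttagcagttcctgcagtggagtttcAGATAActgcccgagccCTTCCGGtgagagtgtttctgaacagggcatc
B2_Mm2 near Nexn: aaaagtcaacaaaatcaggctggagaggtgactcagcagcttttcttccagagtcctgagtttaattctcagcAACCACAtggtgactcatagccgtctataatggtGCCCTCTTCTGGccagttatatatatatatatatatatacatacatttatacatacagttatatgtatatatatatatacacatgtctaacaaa
RLTR45 near Ndufa4: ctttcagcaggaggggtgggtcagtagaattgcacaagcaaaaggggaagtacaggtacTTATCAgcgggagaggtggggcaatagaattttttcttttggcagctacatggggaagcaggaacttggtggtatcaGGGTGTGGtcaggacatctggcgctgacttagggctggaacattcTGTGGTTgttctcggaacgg

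The Kit window held 1 GATA match, the Gata2 window 2 KLF matches and the Atg7 window none of these motifs. The Itgb3 window held a composite, a further GATA match and an ETS match. The F13a1 window held a GATA match between 2 ETS matches, and the RLTR45 window held a GATA, a KLF and a RUNX match. The B2_Mm2 window held a RUNX match beside its CTCF core.

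The peaks only in stress BFU-E were mostly the lower-scored and narrower of the distal stress peaks. The score is the authors' own value per peak, up to 1000, and is used only to describe peaks of 1 list. Its median was 734 in the peaks only in stress BFU-E (quartiles 559 and 914) and 1000 in the shared peaks. A score of 1000 was reached by 3722 of the peaks only in stress BFU-E (14.7%) and by 71.2% of the shared peaks. The median width was 440 bp in the peaks only in stress BFU-E and 652 bp in the shared peaks. From the lowest to the highest score bin, 90.9, 87.9, 83.7, 78.2, 69.7, 58.3 and 19.1% of the distal stress peaks overlapped no BM peak. When the stress list was limited to its 35142 best-scored intervals, as many as the BM list held, 6070 distal peaks without a BM overlap were left.

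At the borders of the selection, 171 of the peaks lay up to 100 bp beyond the limit of 1000 bp from a TSS and had a median score of 720. The 165 stress-only peaks that fell up to 100 bp short of it had a median score of 691. A BM peak lay within 100 bp of 127 of the peaks, whose median score was 724, while 14 shared peaks overlapped BM peaks by 100 bp or less, with a median score of 971.5.

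**Figure D1:**
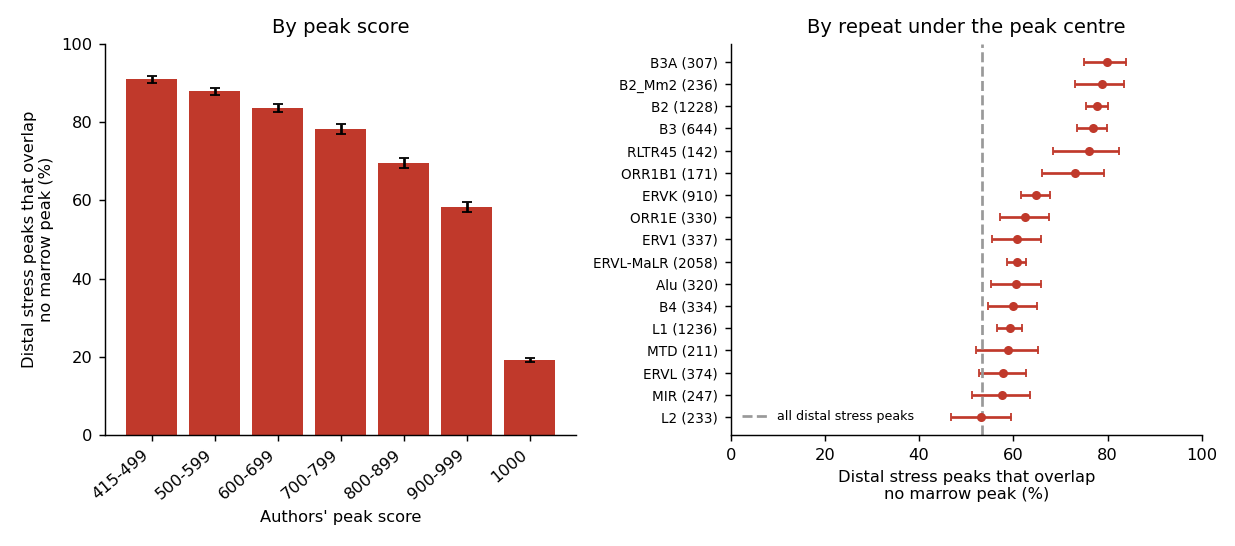
Share of distal stress peaks that overlap no marrow peak (%), as bars by the authors' peak score (left) and as points by the repeat under the peak centre, with the number of distal stress peaks in brackets (right). Whiskers are 95% Wilson intervals and the dashed line is the 53.3% of all distal stress peaks. The share was 90.9% in the lowest score bin, 19.1% at a score of 1000 and 77.9% at B2-family elements.

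In position the peaks only in stress BFU-E resembled the shared ones. The median distance to the nearest TSS was 22102 bp in the peaks only in stress BFU-E and 22429 bp in the shared peaks, and 45.5% of the peaks only in stress BFU-E lay 10 to 50 kb away. Introns held 48.2% of them, against 46.1% of the shared peaks, and intergenic sequence 45.9%, against 47.9%. CpG islands held the centres of 1.17%, against 3.87% of the shared peaks. By the more inclusive GENCODE annotation, 9.42% lay within 1000 bp of a start site, against 13.1% of the shared peaks. The nearest BM peak of any kind was a median of 10188 bp away (quartiles 4147 and 25627 bp), within 1 kb for 7.87% and within 100 kb for 94.6%. A shared stress peak lay within 10 kb of 48.0%.

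Most of the peaks had none of their kind nearby. With neighbours joined where centres lay within 10 kb, 15250 (60.2%) stood alone, 3219 runs held 2, 783 held 3, 191 held 4, 68 held 5 and 29 held 6 or more. The longest run held 13 peaks over 69.1 kb of chromosome 6 (114535811 to 114604874), all intergenic and nearest to Atg7, an enzyme of autophagy. All 13 were centred on the satellite IMPB_01 printed above, their scores were 459 to 828 with a median of 574, and none held a GATA, ETS or CTCF core match. In all, 28 peaks only in stress BFU-E and 6 shared peaks were centred on IMPB_01, and 16 of the 28 were nearest to Atg7. How reads that match several copies of a repeat were treated is not given in the sources used here, and its part in this run was not tested. Firre, an X-linked gene of a long non-coding RNA, had a run of 10 peaks over 39.7 kb, all in introns and 9 of them nearest to it. Gnb2l1, which encodes the ribosomal scaffold RACK1, had 9 over 18.8 kb, all intergenic, with scores of 445 to 956. Rhou had a run of 8 over 15.8 kb, 6 of them nearest to it, of which 6 were centred on the simple repeat (CTCG)n and all 8 lay within 1000 bp of a GENCODE start site.

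Repeats were more frequent under the peaks only in stress BFU-E than under the shared ones. A repeat covered the centre of 21.2%, against 15.6% of the shared peaks. LTRs covered 9.0%, against 6.50%, SINEs 6.05%, against 3.01%, and LINEs 3.51%, against 2.89%. The B2 family of SINEs covered 956 peaks only in stress BFU-E (3.77%) and 272 shared peaks (1.23%). Of the distal stress peaks centred on it, 77.9% (75.4 to 80.1%) had no BM counterpart, against 53.3% of all distal stress peaks. Its members B3A, B2_Mm2 and B3 gave 79.8, 78.8 and 76.9%. Among LTRs, RLTR45 gave 76.1% of 142 peaks, ORR1B1 73.1% of 171 and ORR1E 62.4% of 330. The old L2 family of LINEs gave 53.2% of 233. Of the 1461 distal peaks only in BM, 23.2% were centred on a repeat and 2.53% on a B2-family element. LTRs covered 8.90% of them, SINEs 6.37% and LINEs 5.27%, so these class shares were not particular to the stress list.

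Single repeat types brought particular motifs. The CTCF core was found in 562 of the 956 B2-family peaks only in stress BFU-E and in 136 of the 272 shared ones. In B2_Mm2, the element shown near Nexn, it was in 76.9% of 186, against 78.0% of 50 shared peaks. RLTR45 held a GATA match in 67 of 108 peaks only in stress BFU-E (62.0%) and in 18 of 34 shared ones (52.9%), and a KLF match in 51.9%, against 58.8%. ORR1B1 held the PU.1 motif in 85 of 125 (68.0%), against 67.4% of the shared peaks. ORR1E held an ETS match in 61.2%, against 58.9%. Over all peaks only in stress BFU-E the shares were 23.3% for GATA, 6.49% for KLF, 5.50% for PU.1 and 20.2% for ETS.

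Motifs of GATA factors were slightly more frequent at the peaks only in stress BFU-E than at the shared ones. Matches were searched on both strands within 100 bases of each centre, and in windows of equal length placed 1500 bp to either side, called flanks. The GATA motif (AGATAA or TGATAA) was in 23.3% of the peaks only in stress BFU-E, 21.2% of the shared peaks and 18.7% of the flanks. The difference to the shared peaks was 2.12 percentage points (1.37 to 2.86, counting error only). Over the whole length of each peak, where the shared peaks are wider, it was -6.67 points. The composite (CTG, then 8 bases of any kind, then AGATAA or TGATAA, so that its right part is also a GATA match) was in 1.45% of the peaks only in stress BFU-E, 1.72% of the shared peaks and 0.327% of the flanks. The E-box (CAGCTG or CAGATG) was in 29.98, 30.2 and 23.5% of the same windows.

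Motifs of ETS factors, RUNX and KLF were near or below their share in the shared peaks and above the flanks. The ETS motif (CAGGAAG or CCGGAAG) was in 20.2% of the peaks only in stress BFU-E, 20.9% of the shared peaks and 8.61% of the flanks. The PU.1 form (GAGGAAGT, a site that the ETS letters do not match) gave 5.50, 6.10 and 1.29%, and the RUNX motif (TGTGGTT) 11.4, 11.9 and 5.20%. The KLF motif (CCACACCC or CCGCCCC) gave 6.49, 7.67 and 3.48%, and AP-1 (TGAGTCA) 7.29, 7.26 and 3.54%. The MYB motif (TAACGG or TAACTG) gave 11.04, 10.4 and 9.85%, a difference of 0.62 points to the shared peaks (0.06 to 1.17). Motifs of signals linked to stress erythropoiesis were closer to the flanks. STAT (TTCC and GGAA with 2 bases of any kind between them, or TTCNNNGAA) was in 6.86, 6.36 and 6.35%, and the glucocorticoid receptor (GR) motif (ACANNNTGT) in 7.09, 7.10 and 6.60%. A match is a run of letters and not a site of binding.

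**Figure D2:**
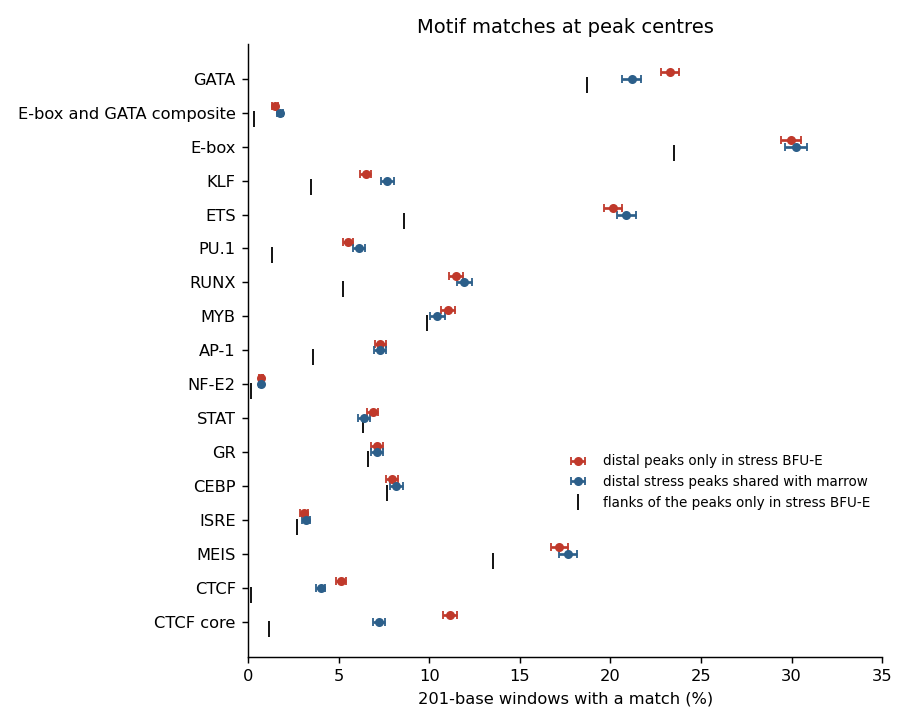
Share of windows at peak centres with a motif match (%), for distal peaks only in stress BFU-E, shared peaks and (black ticks) the flanks of the peaks only in stress BFU-E. Whiskers are 95% Wilson intervals. ETS was at 20.2% in the peaks only in stress BFU-E, against 8.61% in their flanks, and STAT at 6.86%, against 6.35%.

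The CTCF motif had the highest ratio of matches near the centre to matches at the edge of the 9 motifs profiled. Its consensus was in 5.11% of the peaks only in stress BFU-E, 3.99% of the shared peaks and 0.136% of the flanks, and its shorter core in 11.1, 7.19 and 1.15%. Of the peaks only in stress BFU-E with the core, 19.9% were centred on a B2-family element, against 8.52% of the shared ones with the core, and outside that family the core was in 9.25%, against 6.66%. Among peaks of 400 to 600 bp the difference had the other sign, at -0.68 points for the consensus and -0.76 points for the core. Within 50 bp of the centre the peaks only in stress BFU-E held 0.312 CTCF matches per kb, against 0.00197 per kb at 400 to 500 bp. The shared peaks held 0.224 and 0.00721 per kb. The CTCF consensus is longer than the other motifs profiled, and the part of its length was not tested. In the peaks only in stress BFU-E the same 2 values were 1.42 and 1.10 per kb for GATA, 1.31 and 0.441 per kb for ETS, and 0.689 and 0.246 per kb for RUNX.

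**Figure D3:**
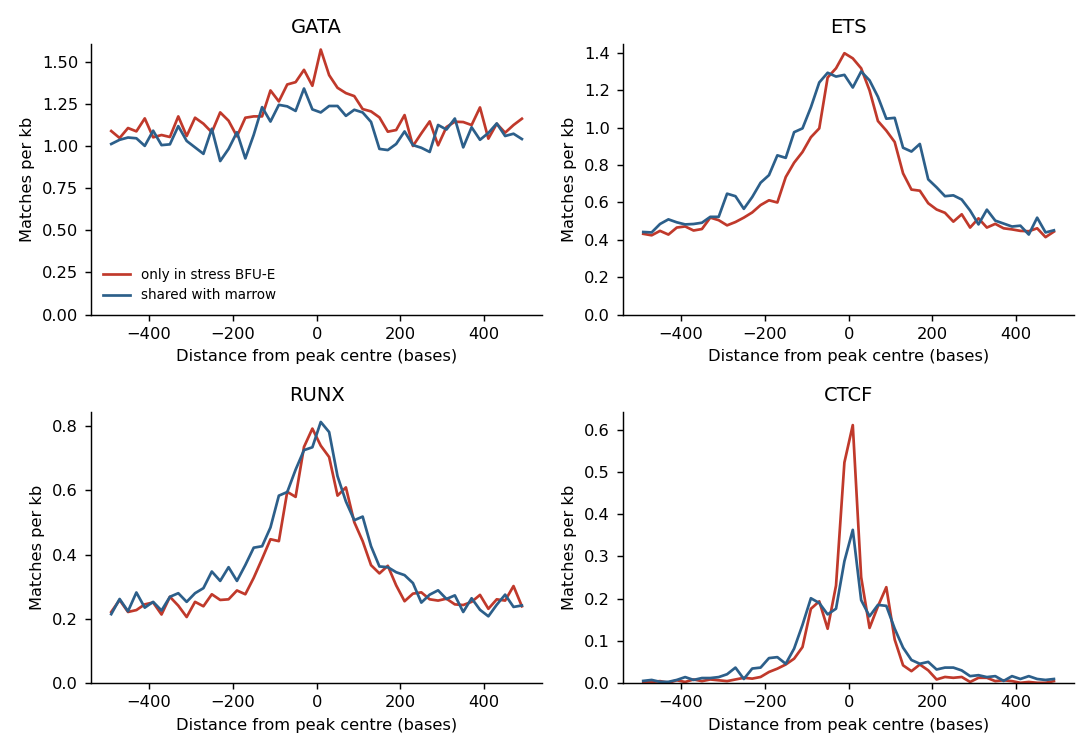
Motif matches per kb by distance from the peak centre (bases), in bins of 20 bases, for GATA, ETS, RUNX and CTCF, with a line each for the peaks only in stress BFU-E (red) and the shared peaks (blue). The ratio of centre to edge was 2.97 in the peaks only in stress BFU-E and 2.71 in the shared peaks for ETS, 2.80 and 3.01 for RUNX, and 1.29 and 1.18 for GATA.

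GATA and ETS matches stood together in 5.03% of the peaks only in stress BFU-E and 4.44% of the shared peaks, and GATA and RUNX in 2.90% and 2.84%. Of 7 motif families counted, none was matched in 31.1% of the peaks only in stress BFU-E and in 31.5% of the shared peaks. Median GC content was 49.3% in the peaks only in stress BFU-E, 50.7% in the shared peaks and 45.8% in the flanks.

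The peaks were spread over 11074 named nearest genes, and 989 of them (3.90%) had no named gene. Of these genes, 5417 had 1 of the peaks, 2624 had 2, 1997 had 3 or 4, 923 had 5 to 9, and 113 had 10 or more. Foxp1, a forkhead factor of B cell development, had 23 beside 13 shared peaks, Zfp608 had 19 beside 10, and Etv6, an ETS repressor needed by blood stem cells, had 16 beside 10. Olfr1507 with 25 and Dad1 with 21 flank the T cell receptor alpha and delta genes, an array that held 45 of the peaks beside 47 shared ones. The immunoglobulin heavy chain locus held 40 beside 54, and the T cell receptor beta locus 17 beside 9. By GENCODE, 25 of the 45, 25 of the 40 and 6 of the 17 lay within 1000 bp of a start site, against 9.42% of all the peaks.

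Regulators of erythroid and stem cells carried peaks at shares near the 53.3% of all distal stress peaks. Of 22 erythroid transcription regulators, 19 had at least 1, with 85 in all beside 73 shared peaks (53.8% of their distal stress peaks). Bach2, a repressor best known in B cells, had 13, Zfpm1, the GATA1 cofactor FOG1, had 11, Sox6, a repressor of embryonic globin, had 10, and Gata2 had 3. Gata1 and Klf1 had none, beside 2 and 1 shared peaks. All 12 partners of TAL1, LMO2 and LDB1 had at least 1, with 57 beside 55 (50.9%), led by Runx1 with 15. Of 25 regulators of stem and multipotent progenitors, 20 had at least 1, with 122 beside 106 (53.5%).

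Other lists ranged to both sides of that share. BMP, SMAD and ID genes had 65 beside 59 shared peaks (52.4%) in 16 of 18 genes, with 14 at Tgfbr2 and 11 at Smad3. BMP signalling is needed for splenic stress erythropoiesis in mice, but Tgfbr2 and Smad3 belong to TGF-beta signalling. Hedgehog and WNT genes had 40 beside 30 (57.1%) in 12 of 16. Shares were lower for targets of the erythropoietin receptor and STAT5 with 27 beside 44 (38.0%) in 13 of 17 genes, for haem synthesis with 9 beside 14 (39.1%) in 6 of 14, and for megakaryocyte genes with 29 beside 41 (41.4%) in 9 of 14. The share was 40.7% for iron genes, 41.2% for genes of the glucocorticoid response, 43.2% for hypoxia genes and 43.4% for red cell membrane genes, and immediate early genes had 30 beside 45. Epor and Tfrc, the receptors of erythropoietin and of transferrin, had none, beside 1 and 2 shared peaks. Monocyte and granulocyte genes had 19 beside 11 (63.3%) in 9 of 14, and macrophage genes 9 beside 5 (64.3%) in 6 of 10. Mast cell and basophil genes had 12 beside 8 (60.0%) and B cell genes 3 beside 1. T and NK cell genes went the other way, with 3 beside 11 (21.4%). All of these shares rest on few peaks. These differences between lists were not tested.

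Kit had 6 of the peaks. Of these, 2 were intronic, the one printed above and one 14628 bp from the start site (score 739), and 3 lay 102834 to 114265 bp upstream with scores of 450 to 769. Gata2 had 3, all upstream, at 1174, 4678 and 14001 bp with scores of 849, 573 and 641. Itgb3, the integrin beta 3 of megakaryocytes and platelets, had 9 beside 7 shared peaks, and 3 of the 9 reached a score of 1000. Car2, the carbonic anhydrase of red cells, had 6 beside 2, the nearest 1375 bp from its start site. F13a1, the gene of the A subunit of coagulation factor XIII, had 7 and no shared peak. All 7 lay 6685 to 98580 bp upstream in intergenic sequence, at least 163635 bp from any BM peak, with scores of 435 to 964.

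Few of the nearest genes were called between stress BFU-E and BM BFU-E by edgeR's quasi-likelihood test with Benjamini-Hochberg adjustment over all 10702 tabled genes. Of the 11074 genes, 5740 (51.8%) were in that table, and 5323 of the others were in the table of values per length and library size (RPKM), where 4609 (86.6%) were under 1 RPKM in all 6 libraries. In bulk RNA, fewer cells of a type and less RNA per cell cannot be told apart. Of the 5740 genes, 0 were higher in stress BFU-E at an adjusted p under 0.05 (0.00934% of all genes) and 8 were lower (0.103% of all genes, or 0.112% in either direction). At an unadjusted p under 0.05 there were 606 (10.6%, against 9.84% of all genes), and DESeq2's Wald test called 142 higher (2.47%, against 2.47% of all genes) and 267 lower (4.65%, against 3.93%). The groups did not overlap in 738 genes with higher values in stress BFU-E (12.9%, against 12.8% of all genes) and in 576 with lower values (10.03%, against 9.08%). The log2 fold change had a median of -0.00 and quartiles of -0.46 and 0.45, against a median of 0.01 over all genes. The spread between replicates, as edgeR's common biological coefficient of variation, was 0.704 in this fit, against 0.2504 in the fit of the spleen stages described further on. The 8 genes called lower became 0 without stress replicate 2 or stress replicate 3, 5 without stress replicate 1, 3 without BM replicate 1 or BM replicate 2, and 15 without BM replicate 3.

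F13a1 had 37.6, 24.6 and 30.7 CPM in stress BFU-E, against 213, 379.5 and 389 CPM in BM BFU-E. The groups did not overlap, and its log2 fold change was -3.40 ± 0.30 (SE derived from the test's F value, n = 3 each, edgeR adjusted p = 0.0205). F13a1, with 7 of the peaks and no shared one, was lower in stress BFU-E. Nol4l, with 11 of the peaks beside 9 shared ones, had 98.7, 131 and 146 CPM in stress BFU-E, against 426, 459 and 489 CPM in BM BFU-E. All stress values were below all BM values, at -1.87 ± 0.19 on the log2 scale (edgeR adjusted p = 0.0237). Unc93b1, a transport protein of endosomal Toll-like receptors with 3 of the peaks and no shared one, had 29.3, 19.2 and 25.8 CPM in stress BFU-E, against 174, 146 and 171 CPM in BM BFU-E. Its groups did not overlap, at -2.72 ± 0.26 on the log2 scale (edgeR adjusted p = 0.0237). Over the edgeR alternatives, adjusted p was 0.0174 to 0.225 for F13a1 and for Unc93b1, and 0.0174 to 0.274 for Nol4l. The summed macrophage, dendritic cell and megakaryocyte markers were also lower in every stress BFU-E library. Those of monocytes and granulocytes and of B cells ranged lower with overlap, and the tabled erythroblast marker was higher. The part of these cell types was not tested.

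The other called genes had 1 of the peaks each. Itsn1, Neat1, Tifab and Csf1r were at -2.14, -1.84, -3.43 and -3.31 on the log2 scale, with edgeR adjusted p of 0.0237, 0.0373, 0.0325 and 0.0373. Csf1r, the receptor of the macrophage growth factor M-CSF, had 9.62, 9.20 and 9.21 CPM in stress BFU-E, against 77.9, 135 and 64.6 CPM in BM BFU-E, without overlap. Csf1r is also among the macrophage markers summed above and made up most of that sum, so the sum is not separate from its call. The remaining called gene is a small nucleolar RNA. Ctse, the 1 gene called higher among all tabled genes, had none of the peaks.

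Kit, Runx1, Itgb3 and Gnb2l1, which carried 6 to 15 of the peaks, did not pass the test. Kit had 253, 335 and 335 CPM in stress BFU-E, against 272, 338 and 306 CPM in BM BFU-E. Its groups overlapped, at 0.01 ± 0.17 on the log2 scale (edgeR adjusted p = 0.992). Runx1 had 357, 308 and 358 CPM in stress BFU-E, against 427, 326 and 332 CPM in BM BFU-E, again overlapping (-0.08 ± 0.16, edgeR adjusted p = 0.919), and so did Itgb3, with 277, 238 and 231 CPM in stress BFU-E, against 234, 294 and 143 CPM in BM BFU-E. Gnb2l1, with the run of 9, had 1194, 1253 and 1135 CPM in stress BFU-E, against 717, 998.9 and 788 CPM in BM BFU-E. Its groups did not overlap, but the difference of 0.52 ± 0.15 on the log2 scale did not pass (edgeR adjusted p = 0.329).

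Along the stress spleen stages MPP, BFU-E and CFU-E, 16.4% of the genes near the peaks were called lower in CFU-E. The share was 11.9% in all genes, 11.9% with shared distal peaks only and 4.76% without a distal stress peak. These differences were not tested. The 3 stages were tested in 1 edgeR quasi-likelihood fit of 9 libraries and 10166 genes, of which 5442 had at least 1 of the peaks. Both steps and the comparison with BM share the stress BFU-E libraries. In BFU-E against MPP, 154 of the 5442 were higher (2.83%, against 2.03% of all genes) and 154 lower (2.83%, against 2.11%, with 4.13% of all genes called in either direction). At an unadjusted p there were 1033 (19.0%, against 15.8%), and groups did not overlap in 612 that were higher (11.2%, against 10.5%) and 686 that were lower (12.6%, against 10.8%). Without BFU-E replicate 1, 2 or 3, the 154 higher genes became 90, 83 and 95, and without BFU-E replicate 1 or 3 the 154 lower genes became 86 and 98. In CFU-E against BFU-E, 503 were higher (9.24%, against 9.17% of all genes) and 890 lower (16.4%, against 11.9%, with 21.1% called in either direction). At an unadjusted p there were 2012 (37.0%, against 31.8%), and groups did not overlap in 962 that were higher (17.7%, against 18.2%) and 1309 that were lower (24.1%, against 19.3%).

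The share called lower in CFU-E went up with the number of peaks per gene. It was 4.76% in genes without a distal stress peak, 11.9% with shared distal peaks only, 11.2% with 1 of the peaks only in stress BFU-E, 15.3% with 2, 21.3% with 3 or 4, 28.6% with 5 to 9 and 39.3% (33 of 84) with 10 or more. The share called higher lay between 8.22 and 10.8% in the genes with at least 1. The median log2 fold change was -0.26 in the 84 genes, against -0.00 in all genes. In BFU-E against MPP the called shares also went up with the number of peaks, in both directions. They were 2.05% higher and 1.73% lower in genes with 1 of the peaks, and 11.9% each with 10 or more. Expression also moved with the number of peaks, with a median level in stress BFU-E of 39.3 CPM in genes with 1, 64.4 CPM with 5 or more and 96.2 CPM with 10 or more, against 39.6 CPM in all genes, and its part was not tested. Among genes with at least 5 distal stress peaks of either kind, 15.1% of 291 were lower in CFU-E where over 66.7% of the peaks were only in stress BFU-E, 29.8% of 1199 where 33.3 to 66.7% were, and 23.3% of 240 where fewer were. The share called lower was thus smallest where most peaks were only in stress BFU-E. Genes were not binned by their number of shared peaks, so the rise is not shown to be particular to these peaks.

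**Figure D4:**
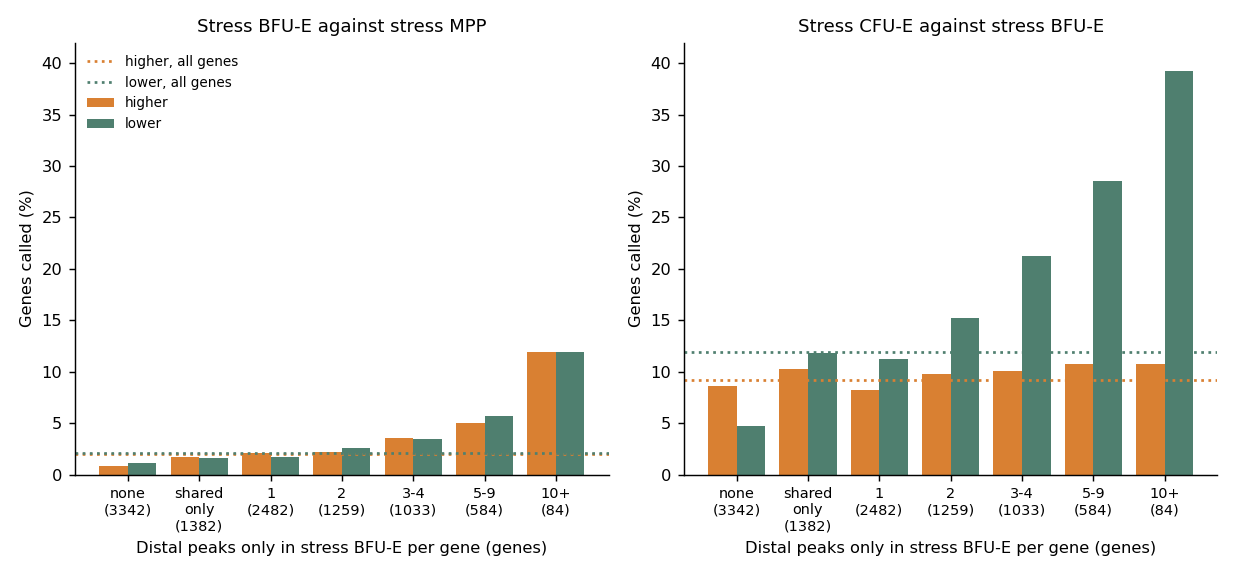
Share of genes called higher or lower (%, edgeR adjusted p under 0.05) by the number of distal peaks only in stress BFU-E per gene, with the number of genes in brackets, for stress BFU-E against stress MPP (left) and stress CFU-E against stress BFU-E (right). Bars are shares and dotted lines the shares of all genes. In CFU-E the share called lower was 39.3% with 10 or more such peaks, against 11.9% of all genes and 11.9% with shared distal peaks only.

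Most megakaryocyte genes near the peaks were highest in BFU-E and low in CFU-E. Of the 9 tested with at least 1 of the peaks, 6 rose and 0 fell in BFU-E against MPP (median log2 fold change 1.02, with 2.03% of all genes higher and 2.11% lower), and 0 rose and 9 fell in CFU-E against BFU-E (median -5.04, with 9.17% of all genes higher and 11.9% lower). The median over all genes was -0.00 at both steps. Itgb3 had 99.3, 96.9 and 102 CPM in MPP, 274, 233 and 227 CPM in BFU-E and 2.01, 2.29 and 1.32 CPM in CFU-E. It was highest in BFU-E and lowest in CFU-E, without overlap between stages. The log2 fold change was 1.30 ± 0.14 in BFU-E against MPP (edgeR adjusted p = 3.8e-06) and -7.00 ± 0.20 in CFU-E against BFU-E (edgeR adjusted p = 9.65e-16). Fli1, an ETS factor of megakaryocytes with 9 of the peaks, rose by 0.46 ± 0.11 in BFU-E (edgeR adjusted p = 0.0229) and fell by 2.97 ± 0.12 in CFU-E (edgeR adjusted p = 2.45e-13). The summed megakaryocyte markers were 532 to 664 CPM in MPP, 863 to 1060 CPM in BFU-E and 16.3 to 26.4 CPM in CFU-E, and the part of megakaryocytic cells in the sorted BFU-E was not tested.

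Regulators of stem and multipotent progenitors fell more often than they rose. Of 19 tested with a peak, 1 rose and 8 fell in BFU-E against MPP (2.03 and 2.11% of all genes), and 1 rose and 11 fell in CFU-E against BFU-E (9.17 and 11.9% of all genes, median log2 fold change -1.34). Mecom, the gene of the stem cell transcription factor EVI1, had 10 of the peaks and 113, 124 and 106 CPM in MPP, 18.7, 30.9 and 19.99 CPM in BFU-E and 3.56, 3.81 and 3.36 CPM in CFU-E. It fell at both steps without overlap, with log2 fold changes of -2.301 ± 0.22 in BFU-E against MPP (edgeR adjusted p = 8.22e-07) and -2.69 ± 0.24 in CFU-E against BFU-E (edgeR adjusted p = 3.47e-08). Runx1 and Etv6 fell in CFU-E, at -1.44 and -1.19 on the log2 scale (edgeR adjusted p = 1.52e-08 and 3.15e-09), with differences of 0.25 and -0.05 in BFU-E against MPP that did not pass.

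Red cell membrane genes near the peaks included Ank1, which was highest in CFU-E. Of 10 tested red cell membrane genes with a peak, 5 rose and 0 fell in BFU-E against MPP (2.03 and 2.11% of all genes), and 5 rose and 3 fell in CFU-E against BFU-E (9.17 and 11.9% of all genes). Ank1, the ankyrin of the red cell skeleton, had 3 of the peaks and 3.88, 0.518 and 5.16 CPM in MPP, 9.28, 10.8 and 10.9 CPM in BFU-E and 227, 275 and 224 CPM in CFU-E. All CFU-E values were far above all others, at 4.55 ± 0.28 on the log2 scale (edgeR adjusted p = 9.06e-11). Of 19 erythroid regulators with a peak, 2 rose and 0 fell in BFU-E, and 5 rose and 2 fell in CFU-E, beside the same shares of all genes. Zfpm1 rose by 0.39 in BFU-E (edgeR adjusted p = 0.00377) and fell by 0.53 in CFU-E (edgeR adjusted p = 2.56e-05). Of 11 tested targets of the erythropoietin receptor and STAT5, 0 rose and 6 fell in CFU-E. Of 8 monocyte and granulocyte genes, 2 rose and 0 fell in BFU-E, and 0 rose and 5 fell in CFU-E, beside summed markers of 113 to 546 CPM in MPP, 699.2 to 843 CPM in BFU-E and 24.6 to 87.2 CPM in CFU-E, whose part was not tested.

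Sort antigens were among the genes with peaks, in populations gated on them. Kit had 401, 454 and 437 CPM in MPP, 249.7, 329.6 and 329 CPM in BFU-E and 486, 453 and 537 CPM in CFU-E, so it was lowest in BFU-E without overlap. Cd24a, with 3 of the peaks and no shared one, fell by 1.63 ± 0.17 in BFU-E (edgeR adjusted p = 2.67e-06) and rose by 2.296 ± 0.17 in CFU-E (edgeR adjusted p = 2.35e-09).

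The genes with the largest changes were named from those with at least 3 of the peaks, a mean of at least 20 CPM and groups that did not overlap. Timp3, an inhibitor of metalloproteinases with 5 of the peaks, had 120.2, 116 and 101 CPM in MPP, 211, 146 and 155 CPM in BFU-E and 0.310, 0 and 0.102 CPM in CFU-E. It was at or near 0 in every CFU-E library. Pde10a, Trpc6 and Cd74 fell there, at -6.74, -6.61 and -5.09 on the log2 scale, and Kcng2, Zfp831, Xylt1 and Cd82 rose there by 3.72, 3.46, 3.38 and 2.95. Ltbp1, which encodes a binding protein of latent TGF-beta, had 10 of the peaks and 10.9, 3.97 and 5.55 CPM in MPP, 52.1, 83.9 and 59.4 CPM in BFU-E and 29.5, 42.4 and 48.0 CPM in CFU-E. It rose by 3.20 ± 0.32 in BFU-E (edgeR adjusted p = 2.12e-06), while CFU-E against BFU-E did not pass (-0.71 ± 0.29, edgeR adjusted p = 0.0916). Scin, Serpine2, Mrvi1 and Slc14a1 rose in BFU-E by 3.93, 2.67, 2.32 and 1.32, and Fgd5, Col4a2, Syne2 and Camk2d fell, at -4.36, -3.51, -2.65 and -2.29.

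**Figure D5:**
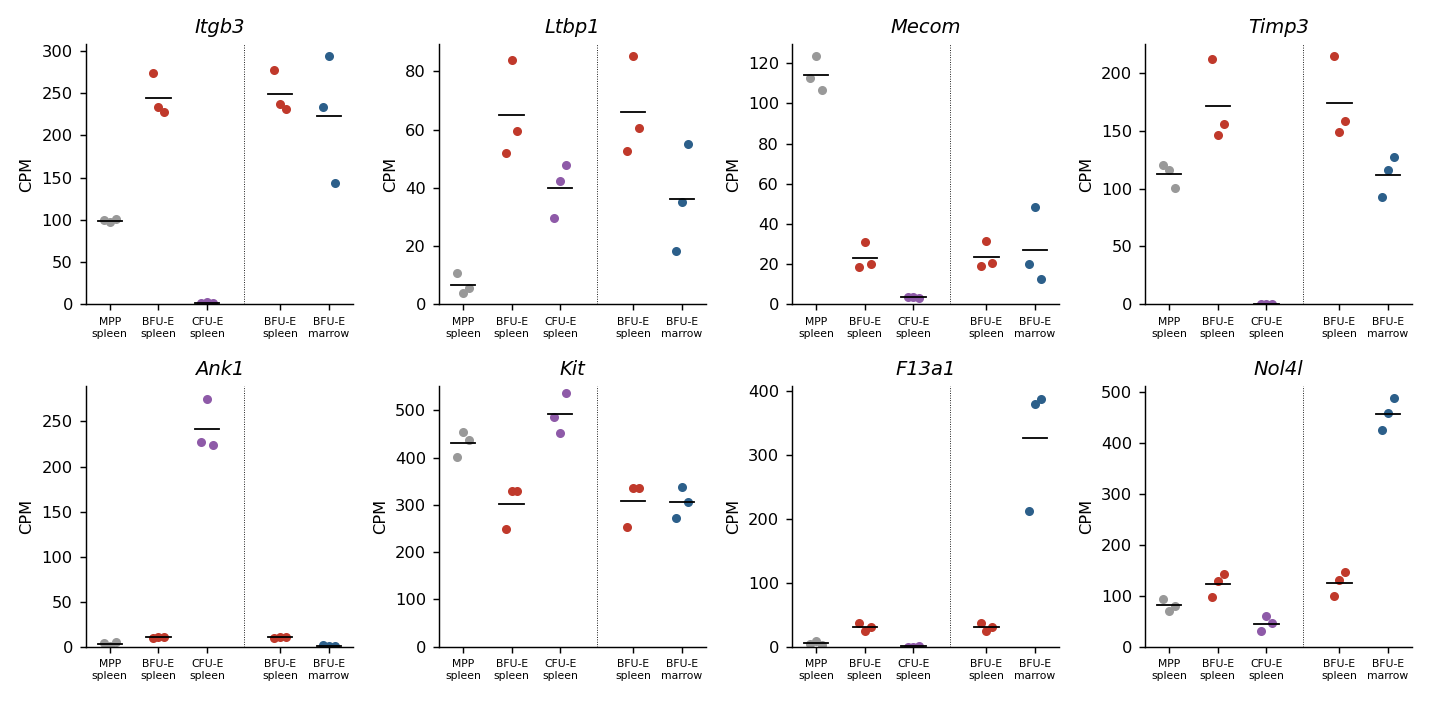
RNA level (CPM) of Itgb3, Ltbp1, Mecom, Timp3, Ank1, Kit, F13a1 and Nol4l, left of the dotted line in stress spleen libraries of MPP, BFU-E and CFU-E, and right of it in stress BFU-E and BM BFU-E from a separate table. Points are libraries (3 per group) and lines are means. F13a1 was at 24.6 to 37.6 CPM in stress BFU-E, against 213 to 389 CPM in BM BFU-E.

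F13a1 had 3.72, 8.81 and 2.19 CPM in MPP, 37.1, 24.1 and 29.98 CPM in BFU-E and 0, 0 and 0.610 CPM in CFU-E in the spleen. BFU-E was above both other stages in every library, with a log2 fold change of 2.65 ± 0.63 against MPP (edgeR adjusted p = 0.0174). Among spleen stages F13a1 was highest in the population whose peaks are described, and it was lower there than in BM BFU-E.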

How the data were processed

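The authors deposited 1 annotated ATAC peak list per BFU-E population, with a score per peak and HOMER's distance to the TSS in mm10. Which caller made the peaks, and at which IDR (irreproducible discovery rate) limit, is not given in the sources used here. The deposited RNA tables hold raw exon counts per gene from HOMER, per the file headers, and the authors limited the BFU-E count table to a mean of 50 counts. RPKM values, also computed with HOMER per the file headers, served only genes outside the count table. The submitters' processing notes name STAR 2.6.0b-1, HOMER 4.8, Bowtie2 2.3.4.2 and DESeq2, without their steps.

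Peaks were merged by interval, and an overlap of 1 bp counted as shared. Motifs, GENCODE start sites and bases were read from GRCm38. Counts were tested with edgeR 4.0.16 (TMM, quasi-likelihood, R 4.3.3), with DESeq2 1.42.0 as an alternative, and spleen genes were kept at a mean of 50 counts. Each SE given after ± is the absolute log2 fold change divided by the square root of the test's F value. It is therefore an approximation and not a standard error of the library values. The motif search and the count tests were tried on simulated data. The simulated counts had a spread near that of the spleen fit (0.2504) and below that of the BFU-E fit (0.704). They therefore do not show how the test performs in the comparison with BM. Python 3.11.15, pandas 2.3.3 and statsmodels 0.14.6 were used. Peaks were assigned to the nearest gene as listed. The genes named were those with the most peaks, those called against BM, the 5 largest rises and falls per spleen comparison, the 3 genes with the most peaks per list and the 5 longest runs, with Gata1, Klf1, Tfrc, Epor, Ctse, Myb, Gata2 and Rhou added. The peaks, gene lists and motifs were chosen with earlier results of these data known. Alternatives were other overlap, distance and score limits, motif windows, count filters, scalings, a replicate block and leaving out each library.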

Additional observations from a re-analysis of the deposited data

How the results depend on the processing

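The number of distal peaks only in stress BFU-E stayed within 1.5 times of 25347 under 7 of 8 alternatives and was 6070 when as many stress peaks as the BM list holds were used. The GATA difference of 2.12 percentage points was -6.67 over whole peaks and 4.84 among peaks of 400 to 600 bp. The CTCF difference of 1.12 was 0.0762 over whole peaks, -0.68 among peaks of 400 to 600 bp and 0.63 among scores of 800 or more but under 1000. The CTCF core difference of 3.92 was 2.06 over whole peaks, 2.97 outside repeats, -0.76 among peaks of 400 to 600 bp and 1.62 among the same scores. Over whole peaks MYB gave -6.48, against 0.62 at the centres, and STAT -4.47, against 0.50, and the composite gave 0.19 among the same scores. Shared peaks were wider (median 652 bp, against 440 bp in the peaks only in stress BFU-E), and the cause of these changes was not tested. The width and score limits, the CTCF core and the GENCODE distances were chosen after seeing the data.

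Against BM, genes with a peak called higher (0) were 142 with DESeq2 and 0 to 4 without single libraries. Those called lower (8) were 267 with DESeq2, 2 with the replicate block and 0 to 15 without single libraries. Over all genes, DESeq2 called 264 higher and 421 lower, against 1 and 11 with edgeR. In BFU-E against MPP, genes called higher (154) were 83 to 161 and genes called lower (154) were 86 to 172 without single libraries, and 247 were lower when every gene with a count was tested. Over all genes, that setting gave 311 higher and 357 lower, against 206 and 214. In CFU-E against BFU-E the ranges were 372 to 567 higher and 733 to 940 lower. With a group left at 2 libraries, the spread is pooled over the fit. The replicate block gave 174 higher and 178 lower genes in BFU-E against MPP, and 519 and 915 in CFU-E against BFU-E. Libraries of the same number correlated at -0.0361 to -0.0295 between stress and BM BFU-E and at 0.0151 to 0.116 in the spleen, where all 9 same-number pairs and 5 of 18 other pairs were above 0 and not every library correlated best with its own number. The labels do not say what a number marks, and whether spleen libraries of a number share animals was not settled. Settings were followed only for named genes that the main fit called, many of them named for large changes in these data. Over all comparisons, 1156 such settings kept direction and side of the threshold, 142 lost the call and 0 reversed. The comparison with BM was less stable than this sum. There, every gene with a peak that was called lower lost the call without stress replicate 2 or stress replicate 3. ATAC depth is unknown, so an unlisted BM peak is not shown to be closed chromatin.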
